A study of Mus musculus with 23 samples.

Results

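Macrophage marker genes were followed in the mouse pancreas before and after a caerulein injury. The 10 genes were taken by name as markers of this cell type, with earlier results of these data known. They are 10 of 18512 gene symbols counted in every sample. They encode cell-surface proteins (Adgre1, Csf1r, Mrc1, Cd163, Ms4a7 and Ms4a6c), proteins of the lysosome and phagosome (Cd68, Lyz2 and Mpeg1) and a cytoplasmic protein of activated macrophages (Aif1). Macrophages are phagocytes that live in nearly every organ, and their number in a tissue is set by cells that settled there early in life and by monocytes that arrive from blood. In the pancreas they lie between the acini, in the islets and around the ducts, and after acute injury they clear dead cells and zymogen debris. CSF1R, the receptor for the growth factors CSF1 and IL-34, keeps them alive, and the transcription factor PU.1 drives much of their gene program.

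RNA was taken from the head of the pancreas of C57BL/6 mice aged 6 to 8 weeks when obtained, so that each library held all cells of that tissue. The baseline group held 8 non-injured mice (4 females and 4 males). The day 7 group held 8 mice (4 females and 4 males) and the day 14 group 7 mice (3 females and 4 males). These mice had been given 8 hourly intraperitoneal injections of 50 µg/kg caerulein on each of 2 consecutive days. Days were counted from a point that the study set 1 day after the last injection. Caerulein is a cholecystokinin analog that overstimulates the acinar cells, which make the digestive enzymes. All mice were of 1 wild-type strain, each mouse was sequenced once, and whether the baseline mice were given vehicle injections is not given in the sources used here.

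The members lie on 7 chromosomes in GRCm38 (GENCODE vM21). Ms4a7 (chromosome 19, 11321039 to 11336146), Ms4a6c (chromosome 19, 11469366 to 11482192) and Mpeg1 (chromosome 19, 12460779 to 12465283) are near neighbours. Adgre1 (57358691 to 57483527) and Aif1 (35170991 to 35176068) are on chromosome 17. The others are Mrc1 on chromosome 2 (14229392 to 14332057), Cd163 on chromosome 6 (124304656 to 124330527), Lyz2 on chromosome 10 (117277331 to 117282321) and Cd68 on chromosome 11 (69664213 to 69666153), with Csf1r given further on. Csf1r overlaps Hmgxb3 and Ms4a6c overlaps BE692007, both on the opposite strand, and the strand setting of the counting is not given in the sources used here.

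Promoter sequence was available for 8 of the 10 members from RefSeq (GRCm38.p6), not for Adgre1 or Csf1r. GAGGAA, the core of sites bound by PU.1 and close relatives, was searched on both strands in the 250 bases before each start. It occurred in Mrc1, Cd68 and Aif1, that is in 3 of the 8 members, against 23.3% of all 32851 promoters in the table. TATAAA occurred in none of the 8, against 12.4% of all promoters. The window of Mrc1 is shown for its 3 matches, that of Cd68 for 1 match far from the start, and that of Ms4a7, the member with the largest change, which has no match; Ms4a7 has another start in the table, also without one. Capitals mark GAGGAA, or its reverse complement, and the matches begin 180, 167 and 35 bases before the start of Mrc1 and 225 bases before that of Cd68.
Mrc1 (chr2:14229164-14229413, plus strand): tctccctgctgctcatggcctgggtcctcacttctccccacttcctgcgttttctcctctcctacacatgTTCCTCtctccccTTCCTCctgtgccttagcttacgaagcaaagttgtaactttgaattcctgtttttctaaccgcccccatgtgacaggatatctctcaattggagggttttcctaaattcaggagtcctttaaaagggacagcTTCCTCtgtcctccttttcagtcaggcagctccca
Cd68 (chr11:69666171-69666420, minus strand): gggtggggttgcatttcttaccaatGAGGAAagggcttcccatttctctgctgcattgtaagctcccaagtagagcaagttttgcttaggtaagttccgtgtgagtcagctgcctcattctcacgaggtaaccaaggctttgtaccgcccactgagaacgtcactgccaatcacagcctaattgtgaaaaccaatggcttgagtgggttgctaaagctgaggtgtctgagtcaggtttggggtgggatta
Ms4a7 (chr19:11336147-11336396, minus strand): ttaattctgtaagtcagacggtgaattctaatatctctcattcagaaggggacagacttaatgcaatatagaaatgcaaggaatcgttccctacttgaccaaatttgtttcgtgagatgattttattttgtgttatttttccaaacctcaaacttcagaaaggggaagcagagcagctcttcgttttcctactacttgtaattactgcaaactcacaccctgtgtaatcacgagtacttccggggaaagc

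Lyz2, the lysozyme of macrophages, has a near-identical neighbour in Lyz1, the lysozyme of Paneth cells. Their coding sequences, 444 bases each, differed at 22 bases (95.0% identity) and shared 1 run of 118 identical bases, longer than the 75-base reads. The stretch with the most differences, coding bases 58 to 132, holds 12 of them, shown in capitals because they are what tells reads of the genes apart.
Lyz2: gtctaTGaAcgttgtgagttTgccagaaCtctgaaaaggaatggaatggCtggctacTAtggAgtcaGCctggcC
Lyz1: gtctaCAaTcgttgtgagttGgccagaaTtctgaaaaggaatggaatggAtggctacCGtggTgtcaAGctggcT
Of all 75-base windows of the Lyz2 transcript, 94.0% occurred in no other gene. Lyz1 counts were far below those of Lyz2, with a median of 23 Lyz2 counts per Lyz1 count at baseline and 46.5 at day 7. The share was 82.7% for Csf1r, whose other windows lie in Hmgxb3, and 46.6% for Ms4a6c, whose other windows lie in BE692007, Ms4a6b and Prdm11. For the other 7 members every window occurred in no other gene, so that Ms4a6c has the lowest share of unique windows among the 10.

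The libraries held 7059890 to 9567446 counts, of which the 10 members together took 0.00378% to 0.0411%. Acinar enzyme transcripts dominated every library, as the tissue label implies. Levels are given in CPM, the count of a gene relative to its library's TMM-scaled total. The summed level of 10 acinar genes had medians of 594000 in the baseline, 367000 in the day 7 and 466000 in the day 14 group. Of the unscaled counts, the 20 most abundant genes took medians of 69.6%, 61.0% and 64.8% in these groups. A list of 10 B and T lymphocyte genes set 4 mice apart, with summed levels of 68.8 to 123 CPM against 0.174 to 20.4 CPM in the other 19. These were 1 baseline male (mouse 5), a female and a male of day 7 (mice 10 and 15) and a male of day 14 (mouse 21). A summed level of 6 adipocyte genes was also high in them, at 82.7 to 203 CPM, with 12.0 to 101 CPM in the others. The changes between time points and the correlations among members are given with and without them, and the sex tests also without mouse 5.

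At day 7 the macrophage markers stood higher than at baseline. Of the 10 members 6 were called higher, none lower, and all 10 fitted changes were positive, with a median log2 fold change of 0.87 against 0.02 over all 12195 genes tested. A gene was called where its fold change reached 1.5 and edgeR's quasi-likelihood test, with sex as covariate, gave a p of 0.05 or below after Benjamini-Hochberg adjustment over all genes. That rule called 3.82% of all genes higher. Since the members were chosen with earlier results of these data known, this share is set beside their count as a description. The called members were Ms4a7, Ms4a6c, Lyz2, Adgre1, Cd68 and Mrc1. Of these, Ms4a7, Ms4a6c and Cd68 had few baseline counts and passed the count filter through the injured groups. With at least 10 counts required in every mouse they were not tested, and Adgre1, Mrc1 and Lyz2 were called of 6 members left. In bulk tissue, more cells of a type and more RNA per cell cannot be told apart, and the share of acinar RNA moved in the same samples; its part in the result was not tested.

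**Figure D1:**
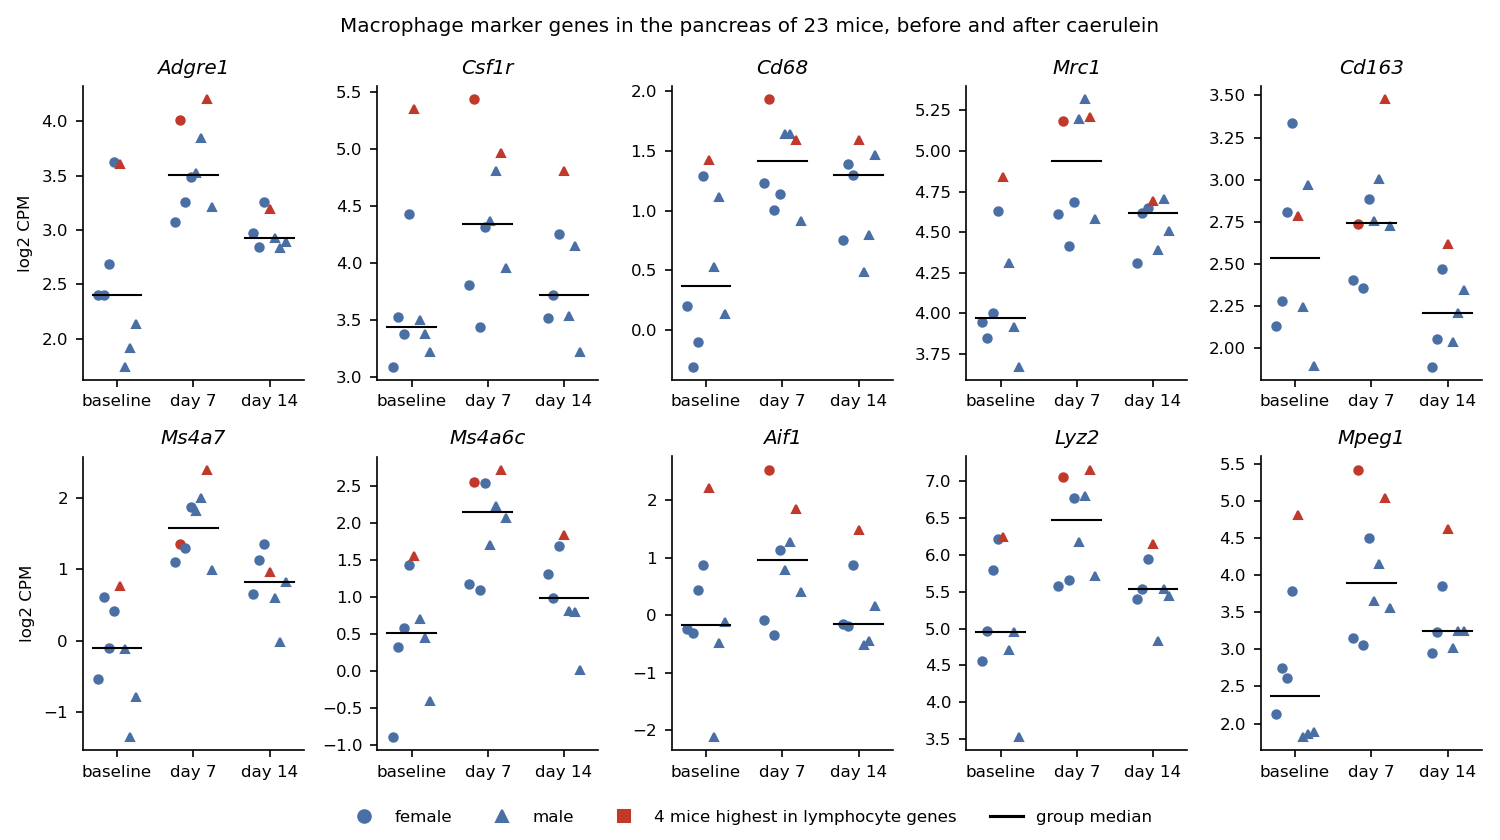
Each panel plots the log2 CPM (vertical axis) of 1 member in each mouse at baseline, day 7 and day 14, with circles for females, triangles for males, a black bar at the group median and red for the 4 mice highest in lymphocyte genes. The medians of all 10 members are highest at day 7, and for Ms4a7 the day 7 mice lie above every baseline mouse.

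The MS4A genes moved the most. They encode 4-pass membrane proteins, and Ms4a7 and Ms4a6c are used as markers of macrophages and monocyte-derived cells. Ms4a7 ranged from 0.161 to 1.48 CPM at baseline (median 0.699), from 1.76 to 5.03 at day 7 (median 2.81) and from 0.752 to 2.34 at day 14 (median 1.54). Every day 7 mouse was above every baseline mouse, which was so for 1.16% of all genes tested. Its log2 fold change at day 7 was 1.86 ± 0.31 (standard error, adjusted p = 0.000134 by edgeR). The counts behind it were few, 1 to 12 at baseline and 16 to 54 at day 7. Ms4a6c ranged from 0.306 to 2.71 CPM at baseline (median 1.20) and from 1.89 to 6.34 at day 7 (median 4.21), with 6 of 8 day 7 mice above every baseline mouse. Its log2 fold change was 1.56 ± 0.35 (adjusted p = 0.00314 by edgeR).

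Among the surface receptors, Adgre1 and Mrc1 rose, and Csf1r and Cd163 did not pass the test. Adgre1 encodes F4/80, the antigen by which mouse macrophages are most often recognised. Its level ran from 3.12 to 12.1 CPM at baseline (median 5.06) and from 8.19 to 18.2 at day 7 (median 11.2), so that the ranges overlapped through 2 baseline mice, mice 4 and 5. The log2 fold change was 0.89 ± 0.25 (adjusted p = 0.0155 by edgeR). Mrc1, the mannose receptor CD206, ran from 12.5 to 28.4 CPM at baseline (median 15.5) and from 21.1 to 39.7 at day 7 (median 30.9). All 8 day 7 mice were above the baseline median, and 4 were above every baseline mouse. Its log2 fold change was 0.73 ± 0.16 (adjusted p = 0.00259 by edgeR), the smallest of the called members and the one with the smallest error.

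Csf1r (chromosome 18, 61100598 to 61132149) ranged from 8.27 to 40.5 CPM at baseline (median 10.6) and from 10.6 to 43.1 at day 7 (median 20.0). The 40.5 CPM belonged to mouse 5, with the next baseline mouse at 21.3, and 7 of 8 day 7 mice lay above the baseline median. The log2 fold change was 0.57 ± 0.36 (adjusted p = 0.286 by edgeR), and without mouse 5 it was 0.96 and was called. Cd163, the receptor that takes up haptoglobin and haemoglobin, differed least. Its range was 3.48 to 9.86 CPM at baseline (median 5.64) and 4.89 to 10.9 at day 7 (median 6.47), which overlapped almost wholly. Its log2 fold change was 0.19 ± 0.18 (adjusted p = 0.504 by edgeR), and in females alone it was -0.12.

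Of the lysosomal and phagosomal genes, Lyz2 and Cd68 rose at day 7, and Mpeg1 did not pass the test. Lyz2 ranged from 11.3 to 75.8 CPM at baseline (median 30.9) and from 47.7 to 142 at day 7 (median 90.4). Mice 4 and 5 were the highest at baseline, and 4 of 8 day 7 mice were above both. The log2 fold change was 1.12 ± 0.35 (adjusted p = 0.0285 by edgeR). Cd68, a glycoprotein of the lysosomal membrane, ranged from 0.578 to 2.46 CPM at baseline (median 1.07) and from 1.65 to 3.59 at day 7 (median 2.46). It gave a log2 fold change of 0.84 ± 0.27 (adjusted p = 0.0269 by edgeR) on 4 to 48 counts. The call of Lyz2 was lost in 8 of the 23 fits that left out 1 mouse and that of Cd68 in 5, with log2 fold changes of 0.97 to 1.07 and 0.70 to 0.78 in those fits.

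Mpeg1, which encodes perforin-2, a pore-forming protein of the phagosome, was not called although its fitted change exceeded that of Lyz2. It ranged from 3.29 to 28.1 CPM at baseline (median 5.02) and from 8.12 to 42.7 at day 7 (median 15). All 8 day 7 mice were above the baseline median, but mouse 5, at 28.1 CPM, was above 6 of them. The log2 fold change was 1.16 ± 0.48 (adjusted p = 0.10 by edgeR), and without mouse 5 it was 1.76 and was called. Aif1 encodes IBA1, an actin-bundling protein. Its levels were 0 to 4.43 CPM at baseline (median 0.654) and 0.556 to 5.54 at day 7 (median 1.74), with the baseline maximum again in mouse 5 and no count in mouse 6. A count of 0 allows up to 3 counts, or 0.314 to 0.425 CPM of the unscaled totals across these libraries. The log2 fold change was 0.79 ± 0.57 (adjusted p = 0.353 by edgeR), and without mouse 5 it was 1.53 and was called.

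Without mouse 5, 9 members were called, all but Cd163, and without mouse 1, 2, 8 or 10 only 4 were (Adgre1, Mrc1, Ms4a7 and Ms4a6c), the calls of Cd68 and Lyz2 being lost. Without all 4 lymphocyte-rich mice, 7 of the 9 members that passed the count filter were called, Mpeg1 among them (log2 fold change 1.22), and the median was 0.89. The 6 called members were the same with DESeq2. With only the baseline and day 7 mice in the fit, 4 of the 9 members tested were called (Cd68, Mrc1, Ms4a7 and Ms4a6c), the calls of Adgre1 and Lyz2 being lost.

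**Figure D2:**
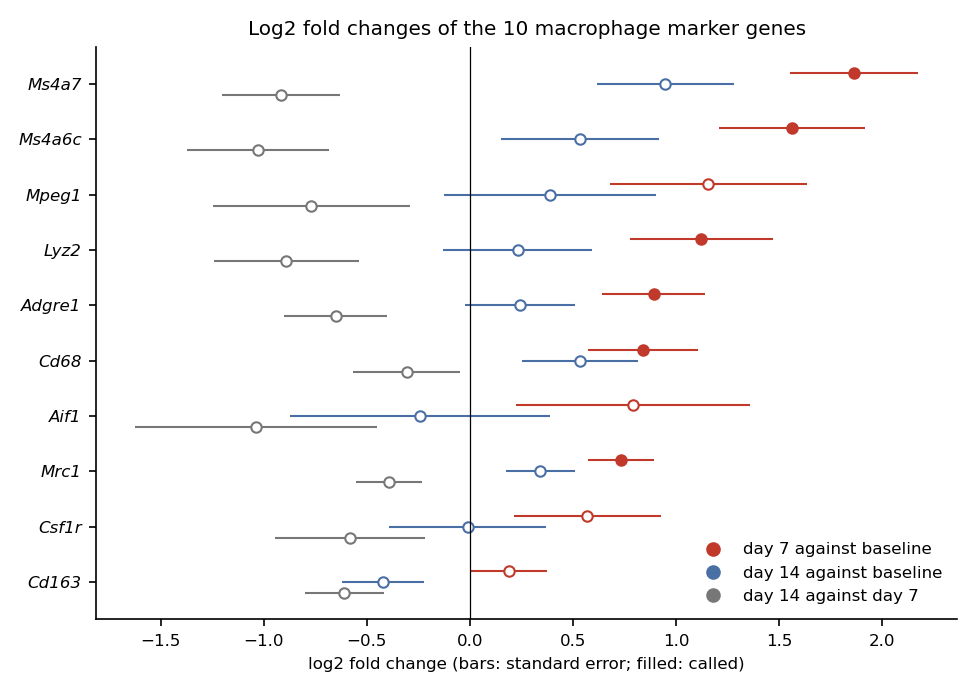
Points give the log2 fold change (horizontal axis) of each member, ordered by the day 7 change, with bars of 1 standard error, filled where called, for day 7 against baseline (red), day 14 against baseline (blue) and day 14 against day 7 (grey). Only day 7 against baseline holds filled points, 6 of 10, and all 10 grey points lie below 0.

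At day 14 no member was called against baseline, while the same rule called 0.697% of all genes higher. With edgeR 2 members had an unadjusted p under 0.05, and with DESeq2, which also called none, 3 had. Over all genes, 1619 of 12195 had such a p with edgeR. The median log2 fold change was 0.29, against 0.01 over all genes, with 7 positive and 3 negative values. This median was 0.51 without mouse 5, with 4 members at an unadjusted p under 0.05, and 0.15 without mouse 21, with 2. Without the 4 lymphocyte-rich mice it was 0.43 over 9 members, 4 of them with an unadjusted p under 0.05, and again none was called by edgeR. Ms4a7 had the largest, 0.95 ± 0.33 (adjusted p = 0.168 by edgeR), with 4 of 7 mice above every baseline mouse. No member had every day 14 mouse above every baseline mouse, which was so for 0.435% of all genes. Cd68 (0.53 ± 0.28), Ms4a6c (0.53 ± 0.38), Mpeg1 (0.39 ± 0.51) and Mrc1 (0.34 ± 0.17) followed. Mrc1 was narrow at day 14, with 7 of 7 mice above the baseline median and a range of 19.6 to 25.8 CPM. Cd163 lay on the other side, with day 14 values of 3.47 to 5.90 CPM (median 4.39), 1 of 7 mice above the baseline median, and a log2 fold change of -0.42 ± 0.20 (unadjusted p = 0.0426, adjusted p = 0.350 by edgeR). Csf1r gave -0.01 ± 0.38 (0.18 with scaling by total counts), Aif1 -0.24 ± 0.63, Lyz2 0.23 ± 0.36 and Adgre1 0.24 ± 0.27, none of them larger than its error.

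Set directly against day 7, all 10 members were lower at day 14, and none was called. The median log2 fold change was -0.71, against -0.01 over all genes, and the rule called 0.172% of all genes lower. With edgeR 6 members had an unadjusted p under 0.05, as many as with DESeq2, which also called none. Over all genes, 1721 of 12195 had such a p with edgeR. The lowest adjusted p was that of Ms4a7 (log2 fold change -0.92 ± 0.29, adjusted p = 0.106 by edgeR), followed by Cd163 (-0.61 ± 0.19, adjusted p = 0.108). Ms4a6c (-1.03 ± 0.34), Aif1 (-1.04 ± 0.59) and Lyz2 (-0.89 ± 0.35) had fitted changes of similar size. The values were negative in all fits that were tried, leaving out any 1 mouse included. Without the 4 lymphocyte-rich mice the median was -0.51 over the 9 members tested. Both time points were compared with the same baseline mice, so the changes at day 7 and day 14 against baseline are not independent.

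No sex difference was detected. In a fit with sex and time point crossed, the test of a different day 7 effect in males and females called none of the members by edgeR (smallest adjusted p = 0.945, 0 members with an unadjusted p under 0.05), against 0.00773% of 12933 genes tested. For the day 14 effect none was called either (smallest adjusted p = 1, 0 with an unadjusted p under 0.05), against 0% of genes. Males and females at the same time point also gave 0 calls (smallest adjusted p = 0.771, 0 with an unadjusted p under 0.05), where 0.23% of genes were called. Without mouse 5 the median difference in the day 7 effect was 0.86 on the log2 scale, against 0.13 with all mice, and 2 members had an unadjusted p under 0.05, none being called by edgeR. The errors were wide, 0.32 to 1.19 on the log2 scale for the difference in the day 7 effect. With 4 mice of each sex, a large difference could have gone unseen. At day 7 the medians of Ms4a7 were 2.27 CPM in females and 3.53 CPM in males, and those of Mrc1 24.9 and 36.6 CPM.

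Per kilobase of exon, Lyz2 stood far above the rest at every time point, at 31.1 ± 18.4 CPM per kb at baseline (SD, n = 8) and 68.1 ± 29.4 at day 7 (SD, n = 8). Mrc1 came next at 2.85 ± 0.88 CPM per kb at baseline, and Lyz2 was above it in 8 of 8 baseline mice. Csf1r (2.64 ± 1.90), Adgre1 (1.98 ± 1.11) and Mpeg1 (1.97 ± 1.98) followed within their spread of each other. Cd163 (1.09 ± 0.39) and Cd68 (1.08 ± 0.59) could not be ordered, each being higher in 4 of 8 mice. Aif1 (0.778 ± 0.908) and Ms4a6c (0.658 ± 0.414) also overlapped. Ms4a7 was lowest at 0.176 ± 0.106 CPM per kb, below Ms4a6c in 8 of 8 mice, and it remained lowest at day 7 (0.667 ± 0.251) and day 14 (0.351 ± 0.114). Cd163 was the sixth in order at baseline and the ninth at day 7, where Ms4a6c, Cd68 and Aif1 had higher means, Aif1 in only 3 of 8 mice. These levels divide by the union of annotated exons in GENCODE, which need not be the lengths that were transcribed.

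Counts of some members relative to Cd163, the member that differed least at day 7, also shifted within libraries. No scaling between libraries enters such ratios. Mrc1 gave a median of 3.33 counts per Cd163 count at baseline (range 1.96 to 4.35), 4.55 at day 7 (3.37 to 5.63) and 5.36 at day 14 (4.35 to 6.22). The ratio was above every baseline mouse in 4 of 8 day 7 mice and 6 of 7 day 14 mice. Ms4a7 gave 0.112 counts per Cd163 count at baseline, 0.458 at day 7 and 0.333 at day 14, and Lyz2 gave 6.23, 12.1 and 11.6. Ratios to Mrc1 overlapped baseline more. Csf1r per Mrc1 count had medians of 0.704, 0.673 and 0.571 with wide overlap. Mpeg1 per Mrc1 count was above every baseline mouse in 1 of 8 day 7 mice and 0 of 7 day 14 mice. For Ms4a7 per Mrc1 count it was 4 of 8 and 1 of 7. These pairs were chosen after the values were seen and were not tested.

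Within time points the members rose and fell together from mouse to mouse. So did many other genes, given further on, and the share of other gene pairs that would pass was not computed. Log2 CPM was centred on the mean of each time point and correlated for all 45 pairs over 23 mice, with 100000 permutations within time points. All 45 Pearson correlations were positive, from 0.273 to 0.922 with a median of 0.653, and 43 passed an adjusted p of 0.05 (two-sided permutation test, adjusted over the 45 pairs), as did 43 by Spearman's rho. The closest pair was Csf1r and Mpeg1 (r = 0.922, rho = 0.848, permutation p = 1e-05 for each, the smallest the permutations can give, and adjusted p = 6.43e-05 and 0.000112). It kept r = 0.859 without the 2 mice farthest in Csf1r. Mpeg1 and Aif1 (r = 0.913) and Adgre1 and Mpeg1 (r = 0.883) came next. The pairs that failed by r were Cd68 with Ms4a7 (r = 0.273, rho = 0.307, adjusted permutation p = 0.285 and 0.200) and Cd163 with Ms4a7 (r = 0.410, rho = 0.467, adjusted permutation p = 0.0972 and 0.0471). With the 2 farthest mice left out for each pair, r ran from 0.236 to 0.916 with a median of 0.594.

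**Figure D3:**
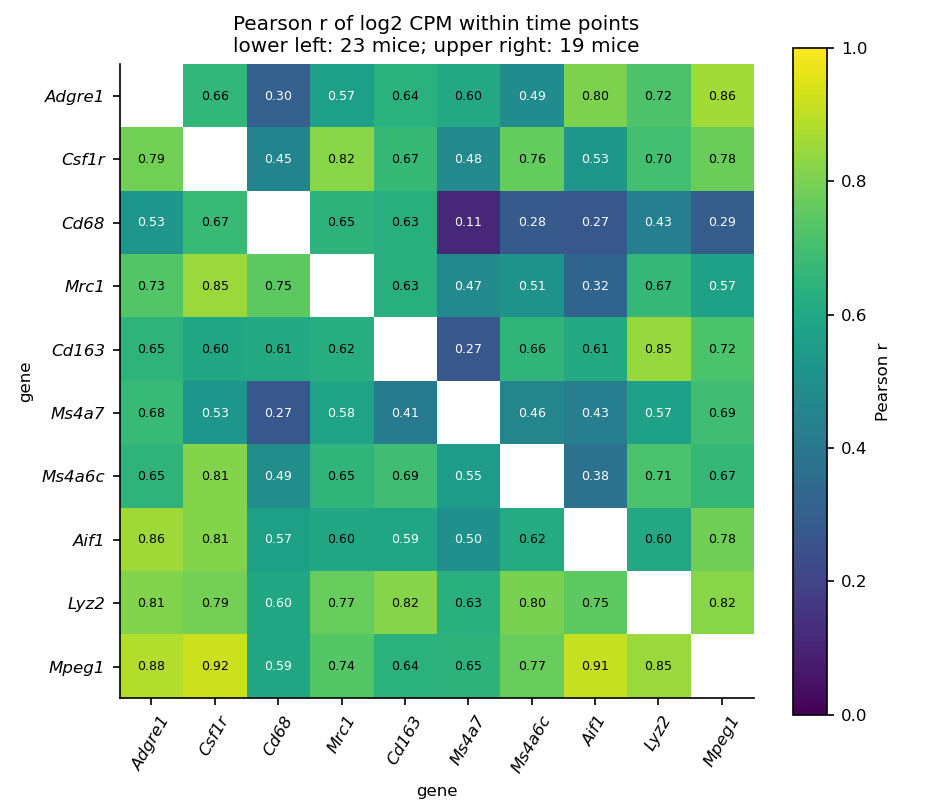
The grid gives Pearson's r between members (both axes list the 10 genes) of log2 CPM centred on each time point mean, over all 23 mice below the diagonal and over the 19 mice left without the 4 highest in lymphocyte genes above it. All 45 values on each side are above 0, and the lowest on both is that of Cd68 with Ms4a7.

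Fewer pairs passed without the 4 lymphocyte-rich mice than the 43 with all mice, but fewer mice also entered. The median r changed little, from 0.653 with all mice to 0.612. What part these 4 mice had in the correlations was not tested. Over the other 19 mice all 45 stayed positive (0.114 to 0.863, median 0.612) and 28 passed by r, 26 by rho. Csf1r and Mrc1 (r = 0.822) and Cd163 and Lyz2 (r = 0.847) were then among the closest, and Cd68 passed only with Mrc1 and Cd163. The lymphocyte-rich mice stood out in some members more than in others. For Mpeg1 they were the highest of their group in 4 of 4 cases (28.1 CPM at baseline, 32.8 and 42.7 at day 7, 24.5 at day 14), as they were for Csf1r, Aif1, Lyz2 and Ms4a6c. For Mrc1 only the baseline mouse was above all others of its group, and for Adgre1 only those of day 7. Ms4a7 in the lymphocyte-rich day 7 female, at 2.32 CPM, was below the median of its group.

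**Figure D4:**
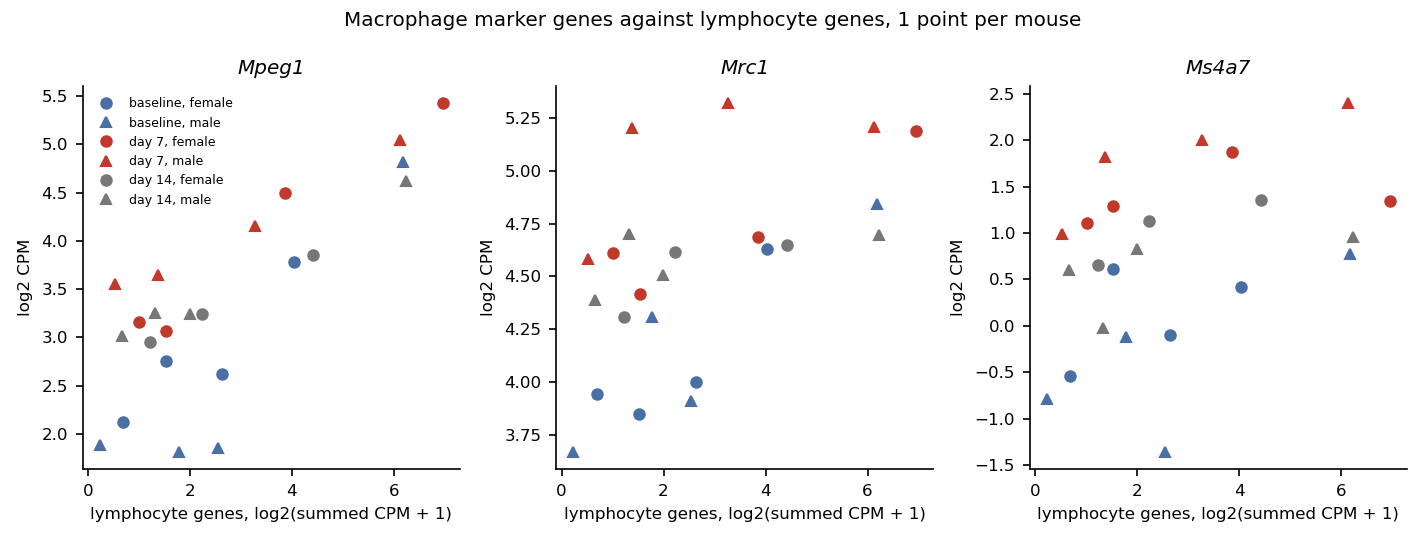
Each point is 1 mouse, with the summed level of 10 lymphocyte genes as log2(CPM + 1) on the horizontal axis and the log2 CPM of Mpeg1, Mrc1 or Ms4a7 on the vertical axis, coloured by time point. The 4 mice at the right form a cluster of their own, in which Mpeg1 is at its group's highest value, while in Ms4a7 the day 7 mice lie above the baseline mice along the whole axis.

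Because these mice form a separate cluster, the relation with the lymphocyte list was computed over the other 19, within time points and with the same number of permutations. All 10 members rose with the list, from r = 0.539 for Mrc1 to r = 0.852 for Lyz2 (rho = 0.844, adjusted permutation p = 0.0003 for r and 0.0009 for rho, over 30 relations with 3 lists), and all 10 passed. Without the 2 farthest mice r was 0.839 for Lyz2 and 0.407 for Mrc1, and 0.345 for Adgre1. The share of other genes that would pass with the 3 lists was not computed, so these counts are a description. The same mice varied in fibroblast genes, with 9 of 10 members passing (r = 0.440 to 0.892, highest for Csf1r), and in adipocyte genes, with 5 of 10 passing (r = 0.318 to 0.658). Without the 2 farthest mice r ran from 0.125 (Cd68) to 0.790 (Csf1r) for the fibroblast list and from 0.0296 (Cd68) to 0.531 (Lyz2) for the adipocyte list, where Csf1r (0.0594) and Mrc1 (0.0817) were also near 0. What these levels have to do with the members was not tested beyond the covariate fits. With the lymphocyte level as a covariate, 7 members were called at day 7, Mpeg1 added, at a median log2 fold change of 0.75. With the adipocyte level 7 were called, at a median of 0.89.

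The genes most like the members were looked for among all genes tested, as the highest correlation with the mean of the 10 centred and scaled members over 23 mice. They were B2m (r = 0.947), Sirpa (0.946), Inpp5d (0.942), C1qb (0.939), Vim (0.937), H2-L (0.937), H2-D1 (0.936), Plbd1 (0.935), H2-Ab1 (0.934) and Syk (0.933). B2m, H2-L and H2-D1 belong to MHC class I, H2-Ab1 to class II, and C1qb is a chain of complement C1q. H2-L and H2-D1 are near-identical genes whose counts cannot be split with certainty. Over the 19 mice without the lymphocyte-rich ones B2m, Inpp5d, Vim, H2-L and H2-D1 remained among the closest 10, and Dcn (0.927), Fcgr3 (0.945) and C3 (0.947) entered. Over 23 mice the members themselves gave r of 0.687 to 0.943 with their own mean. Genes far down the order also lay in that range, as Fcgr3 (rank 307, r = 0.821) and Dcn (rank 667, r = 0.721). Such closeness was therefore not particular to the members. The points share libraries and their composition, so these values are a description.

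Other genes of mononuclear phagocytes showed the same time course to different degrees. Of the ligands, regulators and adaptors around CSF1R, 10 of 11 could be tested and 2 were called higher at day 7, the adaptor Fcer1g (log2 fold change 1.33 ± 0.30) and the transcription factor Maf (0.77 ± 0.21), with a list median of 0.66. Csf1 (0.09 ± 0.17) had nearly the same median at baseline (5.35 CPM) and day 7 (5.41 CPM), and Spi1, which encodes PU.1, gave 0.73 ± 0.49 and was not called. Of the phagocyte receptors 7 of 15 were called, the largest being Ccr2 (1.43 ± 0.29), the chemokine receptor of monocytes, Fcgr3 (1.22 ± 0.28), Fcgr1 (1.01 ± 0.29) and Itgam (0.84 ± 0.24), with Fcgr2b (0.83 ± 0.27) and Cd14 (0.81 ± 0.27). The list median was 0.83, near that of the members. At day 14 against baseline none of either list was called by edgeR or DESeq2. By edgeR 0 and 3 genes had an unadjusted p under 0.05, as had 1619 of all 12195 genes.

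Among genes of long-lived tissue macrophages, F13a1 (0.61 ± 0.17) of 9 was called at day 7 and the list median was 0.33. Lyve1 (0.63 ± 0.45), Timd4 (0.44 ± 0.50), Folr2 (0.42 ± 0.25) and Cbr2 (0.33 ± 0.20) were not called in that fit. Neither were Gas6 (0.22 ± 0.09), Pf4 (0.17 ± 0.24), Igf1 (0.06 ± 0.07) and Cd209f (0.04 ± 0.36). With scaling by total counts 6 of the 9 were called at a median of 0.77. Vsig4 could not be tested, with medians of 0.463 CPM at baseline and 0.212 at day 7. The difference between the lists was not tested. Of the monocyte and dendritic cell genes 3 of 10 could be tested, and Plac8 (1.79 ± 0.43) was called higher and Zbtb46, a transcription factor of dendritic and endothelial cells, lower (-0.60 ± 0.12). Ly6c2 was at or near 0, with a highest value of 2.54 CPM. Among genes of stimulated macrophages, Gpnmb (1.87 ± 0.46), Lgals3 (1.13 ± 0.29) and Spp1 (0.72 ± 0.12) were called of 5 tested, Spp1 being also a duct gene. The others tested, Retnla (-0.30 ± 0.48) and Mgl2 (0.15 ± 0.21), were not called. Nos2 and Arg1 were too low to test, with day 7 medians of 0.199 and 0.317 CPM. Arg1 at day 14 had a median of 0.441 CPM but reached 9.45 CPM (89 counts) in 1 mouse, and 3 of 7 mice were above the baseline maximum of 0.766 CPM.

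**Figure D5:**
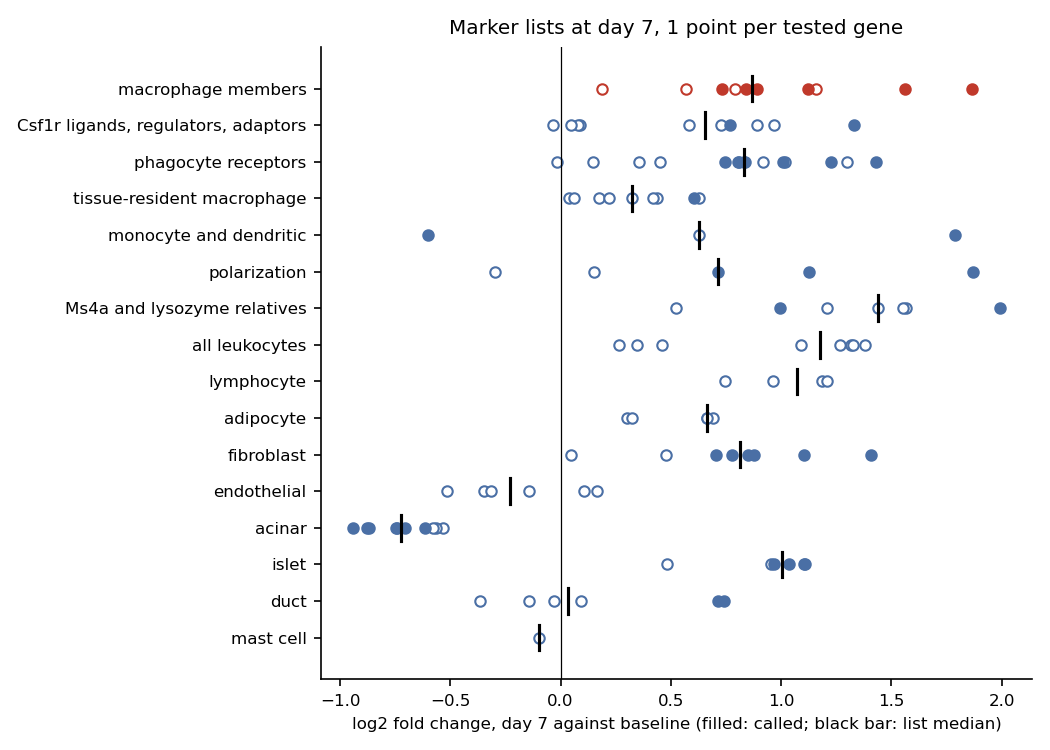
Each point is the log2 fold change of 1 tested gene at day 7 against baseline (horizontal axis), grouped by marker list (vertical axis), filled where called, with a black bar at the list median. The members (red, 6 of 10 filled) lie beside the phagocyte receptors (7 of 15), while 7 of 10 acinar genes are filled on the left.

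Of 7 relatives of the MS4A and lysozyme members that were tested, Lyz1 among them, Ms4a6d (1.99 ± 0.37) and Ms4a4d (0.99 ± 0.19) were called at day 7 at a list median of 1.44. Ms4a4b, Ms4a4c and Ms4a6b were not called (adjusted p = 0.391, 0.306 and 0.126 by edgeR). Ms4a6d was called lower at day 14 than at day 7 (-1.59 ± 0.36, adjusted p = 0.0188 by edgeR). Its levels ran from 0.123 to 1.11 CPM in baseline mice, from 0.607 to 2.90 in day 7 mice and from 0.251 to 1.27 in day 14 mice. Lyz1 gave 0.52 ± 0.51 and was not called. Ms4a1, the B cell antigen CD20, gave 1.21 ± 1.15 and was not called.

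Markers of other cell types moved at day 7 as well, and their part in the members' change was not tested. Of 8 fibroblast genes 6 were called higher (Lum 1.41 ± 0.16, Col3a1 1.10 ± 0.17, Pdgfra 0.88 ± 0.09), with summed levels of 321 to 634 CPM at baseline and 600 to 1150 CPM at day 7. Lum and Pdgfra were still higher at day 14. Of 10 acinar genes 7 were called lower and all 10 were negative (Prss2 -0.94 ± 0.10, Pnlip -0.88 ± 0.08), at 461000 to 680000 CPM against 278000 to 417000 CPM. Of 6 islet genes Ins1, Ins2 and Iapp were called higher. Genes of all leukocytes gave 0 calls of 8 (median 1.18), lymphocyte genes 0 of 4 (1.07) and adipocyte genes 0 of 5 (0.66), with edgeR's smallest adjusted p at 0.213, 0.495 and 0.542, none with an unadjusted p under 0.05 and 0 calls by DESeq2 in each. Endothelial genes gave 0 of 6 and 0 calls by DESeq2, at a median of -0.23 that was 0.23 with scaling by total counts. By edgeR 3 of them had an unadjusted p under 0.05, as had 3925 of all 12195 genes. Duct genes gave 2 of 6 (0.03). With scaling by total counts the number called higher was 3 for the leukocyte list, 5 for the CSF1R list, 11 for the phagocyte receptors and 5 for the islet genes, and the acinar median was -0.27 where it had been -0.72. Neutrophil genes were too low to be tested, at 0.348 to 24.4 CPM summed over 9 genes at baseline, the maximum in mouse 4, and up to 6.90 CPM at day 7. Mpo had no count in any day 14 mouse. Mast cell genes summed to 0.501 to 4.64 CPM over all mice.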

How the data were processed

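Total RNA from the pancreas head (RIN above 6.4) was depleted of ribosomal RNA and sequenced as paired 75-base reads. Per the study's methods, the authors trimmed reads with Trim Galore and cutadapt, aligned them to mm10 with STAR 2.5.2a and counted uniquely mapped fragments per gene with featureCounts. The deposited files hold these raw counts, 1 value per gene symbol and mouse. The annotation used for counting and its strand setting are not given in the sources used here.

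From the counts, edgeR 4.0.16 (R 4.3.3) was fitted to all 23 mice with TMM scaling (factors 0.77 to 1.40), time point and sex as terms, robust quasi-likelihood dispersion and filterByExpr on time point, which kept 12195 genes (12933 with sex and time point crossed), all 10 members among them. Members with few baseline counts (Ms4a7, Ms4a6c, Cd68 and Aif1) passed that filter through the injured groups. Log2 CPM used a prior count of 2, and the standard error is the log2 fold change divided by the root of the F statistic. The fit was tested on simulated data. Each mouse has its own number, so no pairing across groups was made. Correlations used numpy 2.4.6 and scipy 1.17.1.

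Alternatives were DESeq2 1.42.0, 3 other scalings, 2 other count filters, adjusted p alone, fits on fewer mice or without sex, lymphocyte or adipocyte levels as covariates, a prior count of 0.5, and leaving out each mouse. The fits without the 4 lymphocyte-rich mice were chosen after seeing the data. The members and marker lists were chosen with earlier results of these data known. Genes named are the members, the called genes of the lists (at most 6 a list, by largest change at day 7), markers near 0 and the 10 genes most like the members, and others named with their values were chosen after these were seen. Ms4a4a and Elane, listed, were not analysed here. The libraries held 7059890 to 9567446 counts, which left 1 to 12 counts of Ms4a7 in a baseline mouse. Mapping statistics were not used here.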

Additional observations from a re-analysis of the deposited data

How the results depend on the processing

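At day 7 the 6 members called became 3 where at least 10 counts were required in every mouse, since that filter left 6 members, 4 with only the mice compared (9 members tested), and 1 in females only or in males only, where fewer mice entered and Ms4a7 was the member called. Leaving out 1 mouse at a time gave 4 to 9. Scaling by total counts, which moves the median of all genes to 0.47 at day 7, 0.22 at day 14 and -0.26 between them, called 9 members at day 7, where their median of 1.32 exceeded that of all genes by about as much as before. It also called 1 at day 14 (Ms4a7) and 6 lower at day 14 than at day 7. The latter comparison called 1 with only the mice compared, 2 with the lymphocyte level and 1 with the adipocyte level as covariate, and 0 when any mouse was left out. Counts at day 14 and in the 3 sex tests were 0 in all leave-one-out fits. Cd163 at day 7 turned to -0.12 in females. Csf1r at day 14 turned positive with total counts (0.18), in females (0.14), without the sex covariate (7.08e-05), with the lymphocyte (0.0154) and adipocyte (0.18) levels, with DESeq2 (0.0157), without the 4 lymphocyte-rich mice (0.18) and in 6 leave-one-out fits (range over all -0.197 to 0.398), and Aif1 at day 14 without mouse 5 (range -0.636 to 0.539). For these the cause was not tested. Of 45 pairs 43 passed, and 28 without the 4 lymphocyte-rich mice, where fewer mice entered. The 34 other list genes called at day 7 numbered 31 to 47 under the 3 alternatives run for them, but within lists total counts moved the number further, as from 1 to 6 tissue macrophage genes and from 0 to 3 leukocyte genes called higher. At day 14 the median of the members ran from 0.15 to 0.51 with 1 mouse left out, and 5 members had an unadjusted p under 0.05 with either covariate. For the sex difference in the day 7 effect the median ran from -0.26 to 0.86. No paired analysis was possible because each mouse belongs to 1 group and no number is shared between groups. Depth limits Ms4a7, Ms4a6c, Cd68 and Aif1 most, with 0 to 22 baseline counts in a mouse apart from Aif1 in mouse 5.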
